A study of Saccharomyces cerevisiae with 8 samples.

Results

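Of the 61 sense codons at which A-site occupancy was deposited, 8 encode isoleucine (ATT, ATC and ATA), methionine (ATG) or valine (GTT, GTC, GTA and GTG) in the standard genetic code, and these 8 were taken whatever their values. They were divided by their last base into 4 codons ending in T or C (ATT and ATC for isoleucine, GTT and GTC for valine) and 4 ending in A or G (ATA for isoleucine, ATG for methionine, GTA and GTG for valine). Ribosome-protected footprints (RPFs) were sequenced from budding yeast in 8 libraries, 2 biological replicates for each of 4 groups: eEF3d and WT cells with cycloheximide plus tigecycline (CHX + TIG), and eEF3d and WT cells with cycloheximide plus anisomycin (CHX + ANS). The eEF3d strain yCW35 lacks HEF3 (hef3::KanMX), the paralog of YEF3, and expresses eEF3 only from YEF3 behind a GAL1 promoter with a triple mAID degron tag, next to the auxin receptor osTIR1 under adh1p at HO. WT was BY4741, which like yCW35 is MATa with met15Δ0, ura3Δ0, leu2Δ0 and his3Δ1. The strains differ in markers, however: yCW35 also carries Ura3 with osTIR1, SkHIS3 with the GAL1 promoter and NatMX with the tagged YEF3. None of these is listed for BY4741. Both were shifted from galactose and raffinose to glucose, which turns off GAL1, for 8 h, and the tag makes the protein a target for auxin-dependent degradation. The paper depletes eEF3 with glucose plus auxin and reports none detectable on immunoblots after 8 h. Its growth methods for profiling do not mention auxin. The density at harvest was about 0.5 in the labels, and 0.45 for eEF3d and 0.55 for WT cells in the methods. The table holds no gene-level values, so the loss of eEF3 cannot be checked in it.

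Each value is a pause score, which divides the footprint density in the A site at a codon by the mean density of coding sequences, so that 1 is the coding-sequence average. With CHX + TIG, 21 nt RPFs come from ribosomes whose A site has not yet taken up a tRNA (the pre-accommodation state). With CHX + ANS, 28 nt RPFs come from ribosomes that hold a tRNA in the A site before translocation. A ratio keeps no read numbers. The depth is therefore unknown here, and error can be judged only from the spread of 2 replicates. The paper reports a strong loss of pre-accommodation footprints in eEF3d cells with CHX + TIG. It leaves absolute pause scores uninterpreted, because under internal normalization higher occupancy at some codons lowers that at others. A rise or fall in a pause score is therefore relative to the other codons of its library. Changes in the number of ribosomes at a codon were not tested. An earlier study supplied 3 of the libraries, WT replicate 1 with CHX + TIG and the 2 WT replicates with CHX + ANS. In 28 nt RPFs, the origin of a library and its strain cannot be told apart.

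Isoleucine and valine codons ending in T or C are each read by a tRNA whose gene carries A at the first anticodon position. In eukaryotes this adenosine is deaminated to inosine, which pairs with U, C and, less well, A at the last codon position. The codons ending in A or G are read by other tRNAs with U or C at that position, and methionine has a single codon, read within coding sequences by the elongator tRNA. The nuclear genome of the R64 assembly (RefSeq annotation) has 13 genes for tRNA-Ile(AAU) and 14 for tRNA-Val(AAC), and 0 genes with the anticodon GAU or GAC, which would be the other way to read the T and C endings. There are 2 genes each for tRNA-Ile(UAU), tRNA-Val(UAC) and tRNA-Val(CAC). For methionine, 5 of the 10 CAU genes are annotated as elongator, 4 as initiator, and 1 without a role but with the same sequence as the 4 initiator genes. The sequences of the 6 elongator tRNAs are shown because they separate the codons compared here, as genomic DNA with introns removed, 5′ to 3′, with the anticodon in capitals.
tRNA-Ile(AAU), for ATT and ATC: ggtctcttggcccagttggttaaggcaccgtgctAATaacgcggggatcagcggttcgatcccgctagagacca
tRNA-Ile(UAU), for ATA: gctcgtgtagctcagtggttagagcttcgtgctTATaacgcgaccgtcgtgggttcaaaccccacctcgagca
tRNA-Met(CAU), for ATG: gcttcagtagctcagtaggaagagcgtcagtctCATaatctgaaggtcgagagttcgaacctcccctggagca
tRNA-Val(AAC), for GTT and GTC: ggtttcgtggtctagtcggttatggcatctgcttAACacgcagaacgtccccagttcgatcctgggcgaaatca
tRNA-Val(UAC), for GTA: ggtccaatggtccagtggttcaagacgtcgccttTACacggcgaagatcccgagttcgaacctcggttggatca
tRNA-Val(CAC), for GTG: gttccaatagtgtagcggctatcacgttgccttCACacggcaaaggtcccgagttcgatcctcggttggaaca

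All 13 genes for tRNA-Ile(AAU) share the printed sequence, taken from YNCB0004W (chrII:197494-197567, forward strand). Of the 14 genes for tRNA-Val(AAC), 13 share the one shown, from YNCE0023W (chrV:438700-438773, forward strand). The 2 genes for tRNA-Ile(UAU) differ in their spliced sequence, and the one shown is YNCD0017W (chrIV:884361-884493, forward strand), whose 133 nt include an intron of 60 nt. The remaining sequences are those of EMT1 (chrIV:1175829-1175901, forward strand) for methionine, YNCB0011C (chrII:326792-326865, reverse strand) for tRNA-Val(UAC) and YNCD0022C (chrIV:1075472-1075544, reverse strand) for tRNA-Val(CAC).

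By use, ATT was the commonest of the 8 codons. Counted over 6002 nuclear coding sequences without the 15 nt at either end, it made up 30.3 of every 1000 codons and ranked 6 of 61. GTT followed with 21.5 per 1000, at rank 14. ATG, ATA and ATC lay close together at 18.8, 18.4 and 17.1 per 1000, and GTA, GTC and GTG at 12.1, 11.3 and 10.8 per 1000, at ranks 39 to 42. Within isoleucine, 27.9% of codons were ATA, so the codon of the tRNA with 2 genes was used about as often as ATC, with 26.0%.

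In 21 nt RPFs, all 4 codons read by inosine tRNAs rose in eEF3d cells, to values closer to the average of the coding sequence than in WT cells, where they were among the lowest codons. ATG rose as well. GTG, a high codon in WT, fell, and the intervals of the changes at ATA and GTA included 0. Over the 8 codons, 5 were higher and 1 was lower in eEF3d cells by limma at an adjusted p under 0.05, against 34.4% of all 61 codons higher, 27.9% lower and 62.3% in either direction. The 8 changes had a median of 0.84 on the log2 scale, against 0.17 over all 61 codons. Differences are eEF3d minus WT on the log2 scale throughout, and standard errors of single codons in this class were all 0.21, because limma used a common SD.

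ATT is the isoleucine codon complementary to the anticodon of tRNA-Ile(AAU) as encoded in the gene, before its deamination to inosine. In 21 nt RPFs its pause scores were 0.792 and 0.727 in eEF3d replicates 1 and 2. WT replicates 1 and 2 had 0.373 and 0.426. ATC, read by the same tRNA, had 0.777 and 0.812 in eEF3d, and 0.439 and 0.484 in WT cells. The 2 strains did not overlap at either codon, and the rise was 0.93 at ATT (limma adjusted p = 0.000121) and 0.78 at ATC (limma adjusted p = 0.000902). Among the valine codons, GTT had pause scores of 0.831 and 0.680 in eEF3d, and 0.378 and 0.429 in WT cells. GTC had 0.879 and 0.917 in eEF3d, and 0.461 and 0.488 in WT cells. Again both eEF3d libraries lay above both WT libraries, with a rise of 0.90 at GTT (limma adjusted p = 0.000154) and 0.92 at GTC (limma adjusted p = 0.000128). Across all 61 codons, the replicates of eEF3d were both above those of WT at 47.5% and both below at 34.4%, so separation alone does not set these codons apart. In eEF3d cells, ATC was the lowest of all 61 codons in replicate 1 and GTT in replicate 2, and ATT ranked 60 and 58. In WT cells the 4 codons ranked between 56 and 60 in each library, so that ATT and GTT rose in value but stayed near the bottom of the order. GTC ranked 55 and 40 in eEF3d replicates 1 and 2, against 56 in each WT replicate.

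The codons ending in A or G did not behave alike. ATA (Ile), read by the tRNA with a UAU anticodon, had pause scores in 21 nt RPFs of 1.501 and 1.76 in eEF3d replicates 1 and 2, and 2.01 and 2.06 in WT replicates 1 and 2. GTG (Val) had 1.07 and 1.37 in eEF3d, and 2.05 and 1.81 in WT cells. At both codons the eEF3d libraries lay below the WT libraries. GTG fell by 0.67 (limma adjusted p = 0.00439). At ATA the change was -0.33, with a 95% interval from -0.74 to 0.09 (limma adjusted p = 0.159). ATA and GTG stood apart from the other 6 codons in WT cells, where the replicates of the pair overlapped each other and the next codon, GTA, was lower in both libraries. GTA (Val) had pause scores of 0.901 and 0.913 in eEF3d, and 0.744 and 0.692 in WT cells, a change of 0.34 with a 95% interval from -0.07 to 0.75 (limma adjusted p = 0.146). GTA and GTG are read by tRNAs with 2 genes each, and GTG was 1.19 and 1.51 times as high as GTA in eEF3d replicates 1 and 2, against 2.76 and 2.62 times in WT replicates 1 and 2.

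ATG (Met), the codon without a synonym, had pause scores in 21 nt RPFs of 0.962 and 1.497 in eEF3d replicates 1 and 2, and 0.519 and 0.683 in WT replicates 1 and 2. Both eEF3d values were above both WT values, with a rise of 1.01 (limma adjusted p = 4.29e-05). The eEF3d replicates were far apart, however: ATG ranked 43 of 61 in replicate 1 and 11 in replicate 2. Without replicate 2 the rise at ATG was 0.69, and without replicate 1 it was 1.33, so that the size of the rise depends on the library used.

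**Figure D1:**
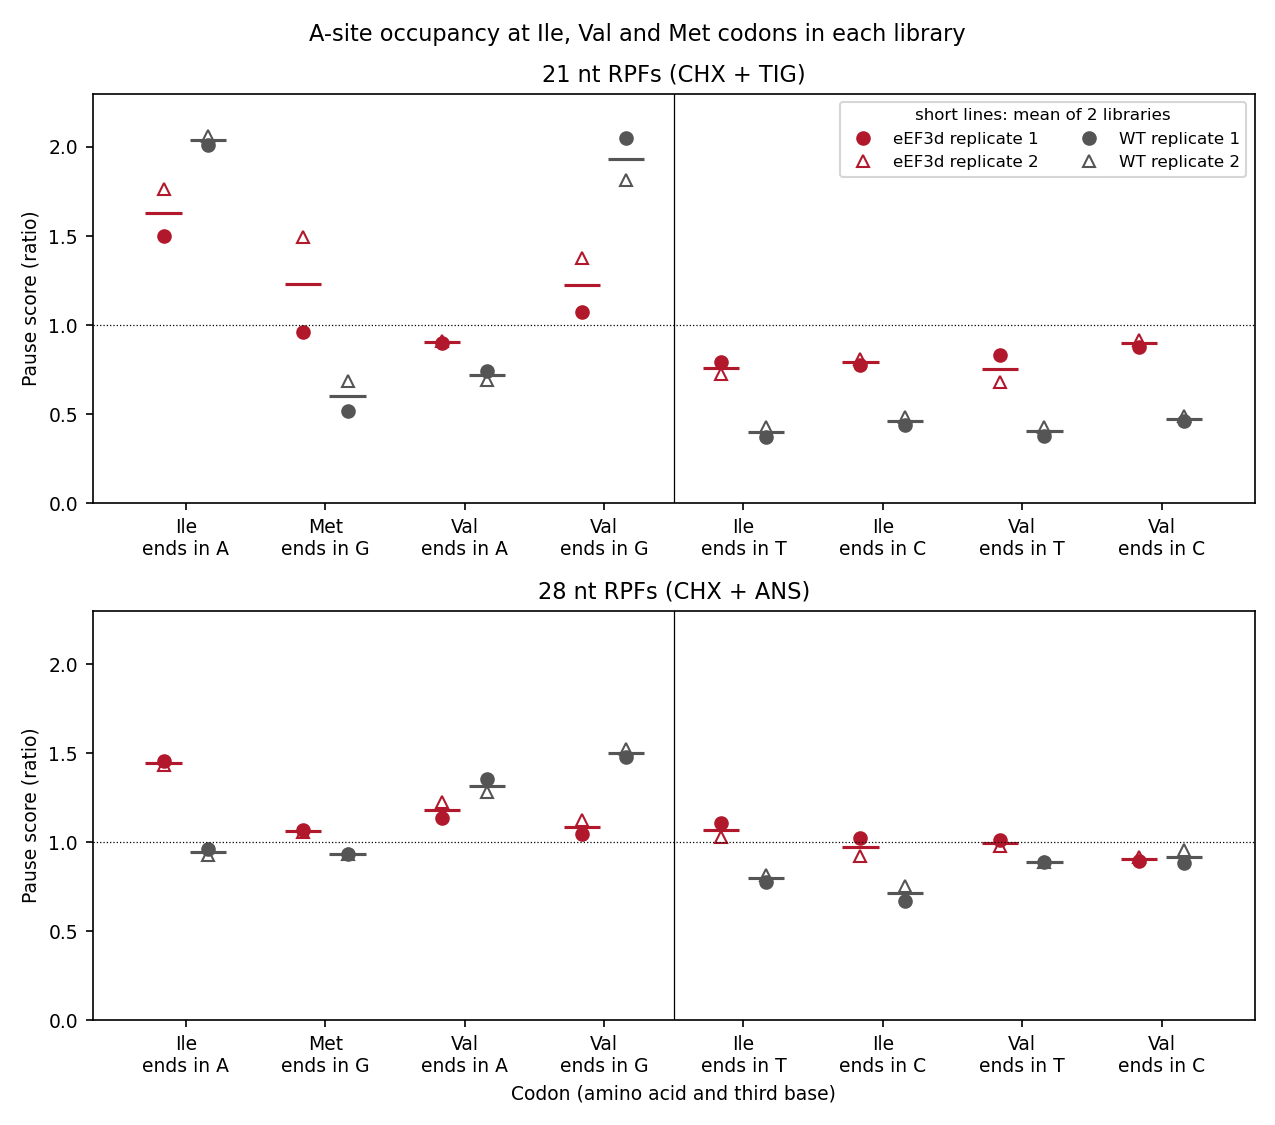
Pause score (ratio, vertical axis) of each codon, named by amino acid and last base, in each library. The upper panel shows 21 nt RPFs and the lower panel 28 nt RPFs; red is eEF3d and gray is WT, filled circles are replicate 1, open triangles are replicate 2, and short lines are means of 2 libraries. In 21 nt RPFs, the codons ending in T or C (right of the vertical line) lie between 0.680 and 0.917 in eEF3d cells and between 0.373 and 0.488 in WT cells.

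Among the 8 codons, the highest pause score in 21 nt RPFs over the lowest was 1.93 and 2.59 in eEF3d replicates 1 and 2, and 5.50 and 4.84 in WT replicates 1 and 2. Over all 61 codons this ratio was 2.82 and 5.46 in eEF3d, and 24.0 and 23.8 in WT cells. The narrower range in eEF3d cells was therefore not particular to these 8 codons. ATA was the highest of the 8 in both eEF3d libraries, and in WT cells GTG was highest in replicate 1 and ATA in replicate 2. From high to low, the mean pause scores in 21 nt RPFs of eEF3d cells were 1.63 at ATA, 1.23 at ATG, 1.22 at GTG, 0.907 at GTA, 0.898 at GTC, 0.794 at ATC, 0.760 at ATT and 0.755 at GTT. Their replicates overlapped between ATG and GTG, between GTA and GTC, between ATC and ATT, and between ATT and GTT. In WT cells the means were 2.04 at ATA, 1.93 at GTG, 0.718 at GTA, 0.601 at ATG, 0.474 at GTC, 0.462 at ATC, 0.403 at GTT and 0.399 at ATT. Here the replicates of ATA and GTG overlapped, as did those of GTC and ATC and those of GTT and ATT.

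These calls in 21 nt RPFs rest on the SD that limma pooled over codons. When variances were not moderated, 0 of the 8 codons passed the threshold and 5 had an unadjusted p under 0.05, against 0 and 17 of all 61 codons. With a single WT library the limma count was also 0. This loss of calls was not particular to the 8 codons. Leaving out WT replicate 1 leaves only newly prepared libraries. The changes kept their direction. Without WT replicate 1, the rise was 0.83 at ATT, 0.71 at ATC, 0.81 at GTT, 0.88 at GTC and 0.81 at ATG, and GTG fell by 0.58. GTG also missed the threshold without eEF3d replicate 1 and when libraries were scaled to equal means over the 61 codons. That scaling moved the median change of all 61 codons by 0.29 in 21 nt RPFs and by 0.13 in 28 nt RPFs, and centering each library on its median moved it by -0.15 and -0.09.

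All 3 isoleucine codons rose in 28 nt RPFs of eEF3d cells, ATA most. Of the valine codons, GTG fell and GTT rose slightly, while the intervals of GTA and GTC included 0. ATG rose slightly. Thus 5 of the 8 codons were higher and 1 was lower by limma at an adjusted p under 0.05, against 23.0% of all 61 codons higher, 26.2% lower and 49.2% in either direction. The median of the 8 changes was 0.18 on the log2 scale, against 0.03 over all 61 codons.

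ATA had pause scores in 28 nt RPFs of 1.46 and 1.43 in eEF3d replicates 1 and 2, and 0.963 and 0.930 in WT replicates 1 and 2. It ranked 2 of 61 in both eEF3d libraries, against 28 and 36 in the WT libraries. The rise was 0.61 (standard error 0.05, limma adjusted p = 0.000424), and it passed the threshold under every alternative tried for this comparison. ATT had 1.11 and 1.03 in eEF3d, and 0.778 and 0.817 in WT cells. ATC had 1.02 and 0.922 in eEF3d, and 0.672 and 0.756 in WT cells. The inosine-read isoleucine codons thus rose by 0.42 at ATT (standard error 0.06, limma adjusted p = 0.00307) and by 0.44 at ATC (standard error 0.08, limma adjusted p = 0.0063), again without overlap between strains. Of all 61 codons, 39.3% had their eEF3d replicates above those of WT in this class and 41.0% below. With unmoderated variances, ATT and ATC missed the threshold (adjusted p = 0.0703 and 0.111).

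GTG was the highest of the 8 codons in 28 nt RPFs of WT cells and fell to 1.04 and 1.13 in eEF3d replicates 1 and 2, against 1.48 and 1.52 in WT replicates 1 and 2. The fall was 0.47 (standard error 0.06, limma adjusted p = 0.00197), and without moderation the adjusted p was 0.06. GTA had 1.14 and 1.22 in eEF3d, and 1.36 and 1.28 in WT cells, a change of -0.16 with a 95% interval from -0.32 to 0.00322 (limma adjusted p = 0.0857). Both eEF3d libraries were thus below both WT libraries at each of these valine codons. At GTT, pause scores of 1.01 and 0.977 in eEF3d and 0.887 and 0.887 in WT cells gave a rise of 0.17 (standard error 0.05, limma adjusted p = 0.0449). GTC had 0.894 and 0.919 in eEF3d, and 0.882 and 0.954 in WT cells. It was the only one of the 8 codons at which the strains overlapped in 28 nt RPFs (change -0.02, 95% interval from -0.17 to 0.14, limma adjusted p = 0.815), and its sign turned when libraries were scaled to equal means. ATG had 1.07 and 1.06 in eEF3d, and 0.935 and 0.932 in WT cells, a rise of 0.19 (standard error 0.05, limma adjusted p = 0.0257). The calls at GTT and ATG were lost when any 1 of the 4 libraries was left out and when libraries were centered on their medians.

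Averaged on the log2 scale and turned back into a ratio, the 3 isoleucine codons had a geometric mean pause score in 28 nt RPFs of 1.18 and 1.11 in eEF3d replicates 1 and 2, and 0.796 and 0.831 in WT replicates 1 and 2. The 4 valine codons had 1.02 and 1.05 in eEF3d, and 1.12 and 1.13 in WT cells. Both amino acids were higher in 21 nt RPFs of eEF3d cells, isoleucine with 0.974 and 1.01 in eEF3d and 0.691 and 0.752 in WT cells, and valine with 0.917 and 0.941 in eEF3d and 0.718 and 0.716 in WT cells. These means were not tested, and the direction for valine in 28 nt RPFs depended on scaling: its mean change was -0.12 as deposited, -0.21 with libraries centered on their medians and 0.02 with libraries scaled to equal means. For isoleucine the mean change in 28 nt RPFs was 0.49, 0.41 and 0.63 under the same scalings. ATA and GTA, which share both bases after the first, had a ratio (ATA over GTA) in 28 nt RPFs of 1.28 and 1.17 in eEF3d replicates 1 and 2, and 0.710 and 0.727 in WT replicates 1 and 2.

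**Figure D2:**
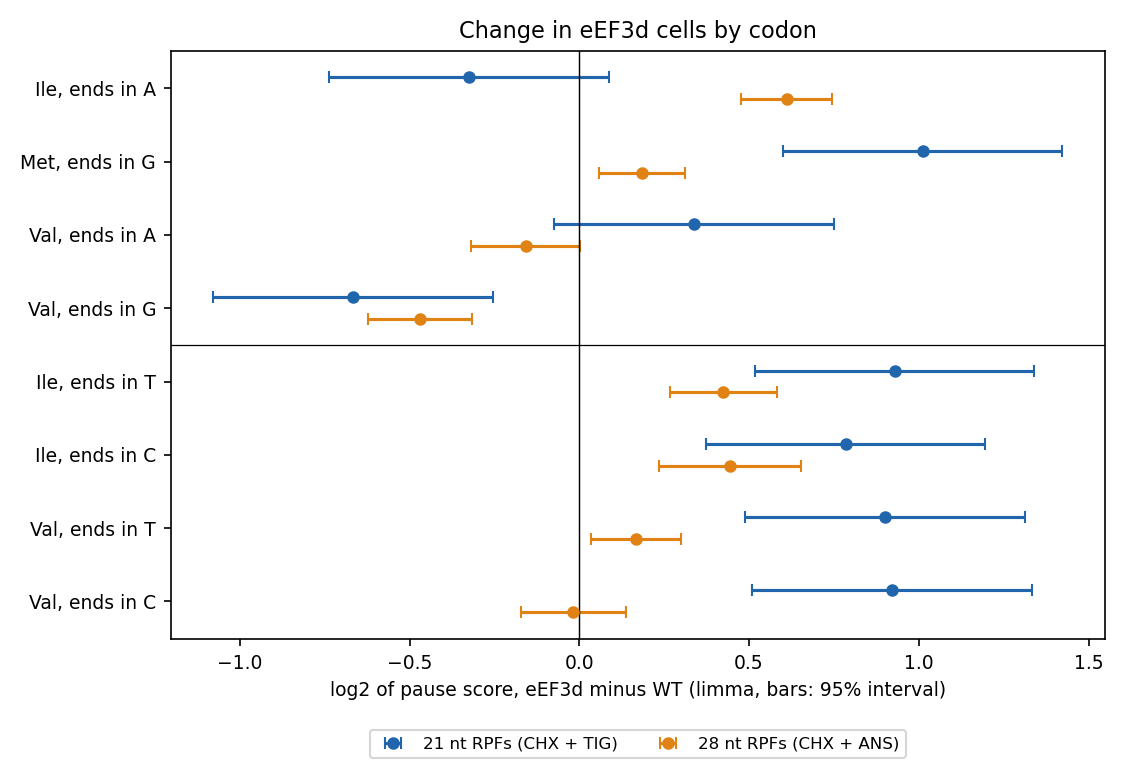
Change in eEF3d cells (horizontal axis, log2 of the pause score, eEF3d minus WT) of each codon, named by amino acid and last base, in 21 nt RPFs (blue) and 28 nt RPFs (orange). Points are limma estimates from 2 libraries per strain and bars are 95% intervals; ATA (top row) lies at -0.33 in 21 nt RPFs and at 0.61 in 28 nt RPFs.

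Endings were compared as the mean log2 pause score of the 4 codons ending in A or G minus that of the 4 ending in T or C, in each library. This difference is a description of the 8 codons and was not tested. In 21 nt RPFs it was 0.41 and 0.79 in eEF3d replicates 1 and 2, and 1.45 and 1.34 in WT replicates 1 and 2. As a ratio of geometric means, the A or G codons were 1.33 and 1.73 times as high as the T or C codons in eEF3d, and 2.73 and 2.53 times as high in WT cells. The geometric mean of the T or C codons was 0.818 and 0.779 in eEF3d, and 0.411 and 0.456 in WT cells. That of the A or G codons was 1.09 and 1.35 in eEF3d, and 1.12 and 1.15 in WT cells, and the strains overlapped. This overlap rests on ATG: the geometric mean of ATA, GTA and GTG alone was 1.13 and 1.30 in eEF3d, and 1.45 and 1.37 in WT cells, without overlap. The change in the difference was -0.79, and -1.10 without ATG, which was low in WT although it ends in G. With only newly prepared libraries it was -0.74.

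Within isoleucine, ATA in 21 nt RPFs was 1.91 and 2.29 times as high as the geometric mean of ATT and ATC in eEF3d replicates 1 and 2, against 4.97 and 4.54 times in WT replicates 1 and 2. Within valine, the mean of GTA and GTG minus that of GTT and GTC was 0.20 and 0.50 on the log2 scale in eEF3d, and 1.57 and 1.29 in WT cells. GTG alone was 1.26 and 1.74 times the geometric mean of GTT and GTC in eEF3d, and 4.92 and 3.96 times in WT cells, while GTA was 1.05 and 1.16 times that mean in eEF3d, and 1.78 and 1.51 times in WT cells.

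For 28 nt RPFs, the difference between A or G and T or C endings over the 8 codons was 0.21 and 0.32 in eEF3d replicates 1 and 2, and 0.54 and 0.42 in WT replicates 1 and 2, a change of -0.21. The means of the 2 amino acids moved in opposite directions, which was not tested. For isoleucine the difference was 0.45 and 0.56 in eEF3d, and 0.41 and 0.24 in WT cells, slightly higher in eEF3d. It rests on ATA as the only A- or G-ending codon, and the nearest values of the strains, 0.45 and 0.41, lay closer than the WT replicates. For valine it was 0.19 and 0.31 in eEF3d, and 0.68 and 0.60 in WT cells, lower in eEF3d.

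In 21 nt RPFs, the codons that share an inosine tRNA stayed close to each other, except GTC and GTT in eEF3d replicate 2. Their ratio there was 1.35, against 1.34 for GTA over GTT, which are read by different tRNAs. In 21 nt RPFs, ATC over ATT was 0.981 and 1.12 in eEF3d replicates 1 and 2, and 1.18 and 1.14 in WT replicates 1 and 2. GTC over GTT was 1.06 and 1.35 in eEF3d, and 1.22 and 1.14 in WT cells. In WT cells, the C-ending codon was thus the higher of each pair in 21 nt RPFs. ATC over ATT in 28 nt RPFs was 0.920 and 0.894 in eEF3d, and 0.865 and 0.925 in WT cells, so the C-ending codon was the lower in all 4 libraries. GTC over GTT in 28 nt RPFs was 0.881 and 0.940 in eEF3d, and 0.995 and 1.08 in WT cells. Codons read by different tRNAs could be as close in this class. GTG over GTT was 1.03 and 1.15 in eEF3d, but 1.67 and 1.72 in WT cells.

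Alanine, threonine and the TCN codons of serine are decoded in the same way, with inosine tRNAs for the T and C endings, and served for comparison as 12 codons. In 21 nt RPFs, their difference between A or G and T or C endings was 0.25 and 0.31 in eEF3d replicates 1 and 2, and 1.46 and 1.28 in WT replicates 1 and 2. Of the 6 ending in T or C, 4 rose and 0 fell, and of the 6 ending in A or G, 0 rose and 4 fell by limma. In 28 nt RPFs, 0 of these 12 codons rose and 2 fell, with a median change of -0.07 (5 had risen among the isoleucine, valine and methionine codons). Their difference between endings in 28 nt RPFs was 0.30 and 0.17 in eEF3d, and 0.15 and 0.30 in WT cells, with overlap. The difference between the 2 sets of codons was not tested.

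**Figure D3:**
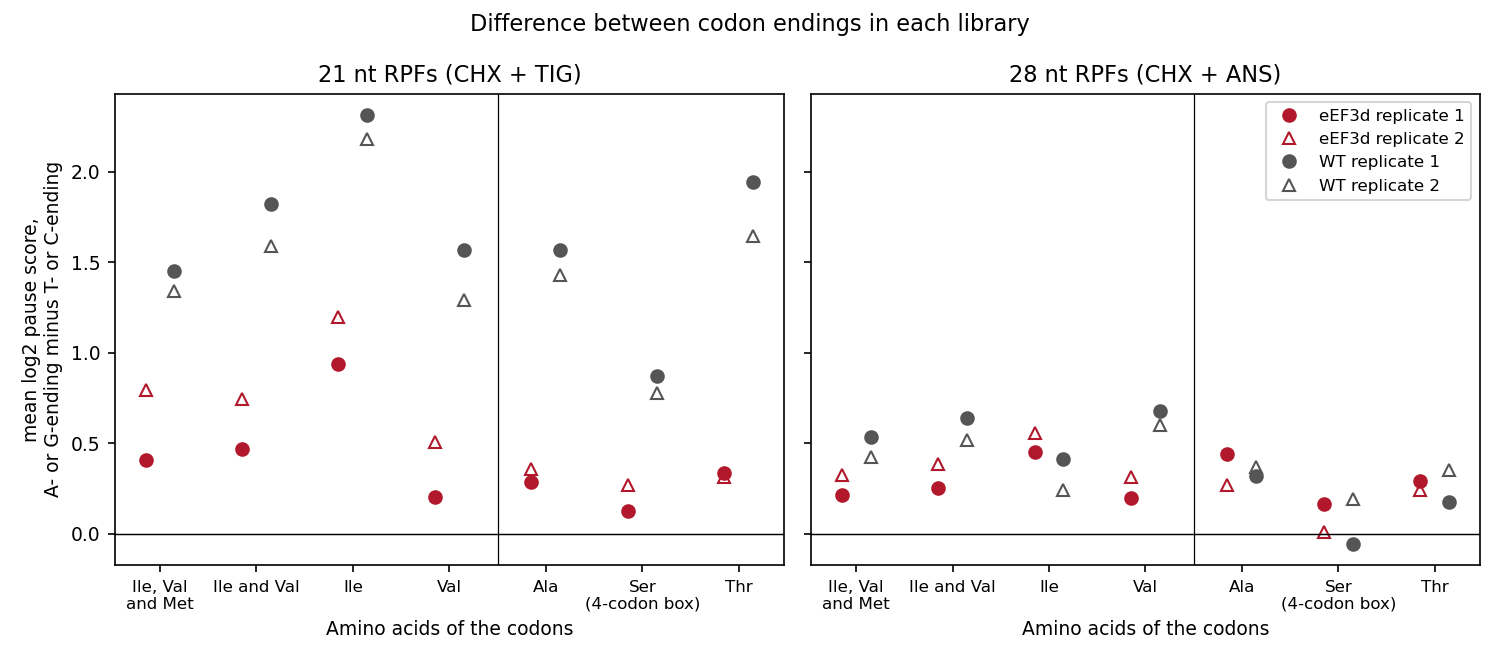
Mean log2 pause score of codons ending in A or G minus that of codons ending in T or C (vertical axis, log2), for the amino acids on the horizontal axis, in 21 nt RPFs (left) and 28 nt RPFs (right). Each point is 1 library, with eEF3d in red and WT in gray, filled circles for replicate 1 and open triangles for replicate 2; over Ile, Val and Met codons in 21 nt RPFs, the eEF3d points lie at 0.41 and 0.79 and the WT points at 1.45 and 1.34.

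Whether the footprint classes differed in their change was tested by the strain-by-class interaction of a limma model of the 8 libraries. It differed at 6 of the 8 codons by an adjusted p under 0.05, against 50.8% of all 61 codons (19.7% with a larger change in 28 nt RPFs and 31.1% with a smaller one). Of the 6, ATA alone had a larger change in 28 nt than in 21 nt RPFs, by 0.94 (standard error 0.18, limma adjusted p = 0.000824). The change was smaller in 28 nt RPFs at GTC, by -0.94 (limma adjusted p = 0.000702), GTT, by -0.73 (limma adjusted p = 0.00553), ATG, by -0.83 (limma adjusted p = 0.0143), GTA, by -0.50 (limma adjusted p = 0.0303), and ATT, by -0.50 (limma adjusted p = 0.0323). At ATC the difference was -0.34, with a 95% interval from -0.74 to 0.06, and at GTG it was 0.20, with an interval from -0.23 to 0.63. Library origin also differs between the classes, since the WT replicates with CHX + ANS are both of earlier origin. With WT libraries of earlier origin alone in both classes, ATA had a difference of 0.92 (limma adjusted p = 0.0071) and GTC one of -0.98 (limma adjusted p = 0.00277). At ATA and GTC the difference passed the threshold under each of the 15 alternatives tried. The calls at ATT, GTA and ATG were lost under several, among them leaving out either WT library with CHX + ANS.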

How the data were processed

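The authors trimmed the reads, discarded those from ribosomal and non-coding RNA, mapped the rest uniquely to R64 with STAR (version not given in the sources used here) and calibrated the A site at start codons. The submitters' processing notes also name CASAVA 1.8. The deposited values are ratios, the footprint density in a 3 nt window at a codon over that of the coding sequence without 15 nt at either end, in 61 rows and 8 columns, with 0 values of 0. Each column was assigned to a library from its name. Log2 ratios were fitted with limma 3.58.1 in R 4.3.3 over all 61 codons, separately for 21 and 28 nt RPFs and jointly for the interaction, with Benjamini-Hochberg adjustment and a threshold of 0.05. No pseudocount was added. In 28 nt RPFs the moderated SD had a prior of 3.64 degrees of freedom, and in 21 nt RPFs 1 common SD of 0.208 was used. Differences between codon endings carry no p-value, and 2 libraries against 2 cannot go below 0.333 in an exact two-sided permutation test. All 8 codons are named in each comparison. Codons, comparison lists and tests were chosen with earlier results of these data known. Codon use and tRNA genes came from the RefSeq annotation of R64, the assembly the authors used, and each anticodon was located in the loop closed by a paired stem, among triplets that read the annotated amino acid. Python 3.11, numpy 2.4.6, pandas 2.3.3 and matplotlib 3.10.9 were used. Alternatives were other scalings, a pseudocount of 0.1, a mean-variance trend, no moderation, the replicate number as a block, weights by footprint class, other summaries of the endings and leaving out each library.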

Additional observations from a re-analysis of the deposited data

Results flagged for a closer look

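At 6 of the 8 codons, 28 nt and 21 nt RPFs differed in the change between eEF3d and WT cells by the interaction term of limma, against 50.8% of all 61 codons, and each is listed for that reason with the difference (28 nt change minus 21 nt change, log2). ATA had 0.94, with a 95% interval from 0.55 to 1.33. GTC had -0.94, from -1.32 to -0.56. ATG had -0.83, from -1.37 to -0.28, and its eEF3d replicates in 21 nt RPFs lay at 0.962 and 1.497. GTT had -0.73, from -1.15 to -0.32. ATT and GTA both had -0.50, with intervals from -0.90 to -0.11 and from -0.88 to -0.11. Of 15 alternatives, 10 ended the call at ATT, 6 that at GTA, 5 that at ATG and 1 that at GTT.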

How the results depend on the processing

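Each group has 2 libraries and the depth is unknown from these ratios, so the spread between replicates limits all calls. The 8 changes in 21 nt RPFs kept their sign under all 11 alternatives, and so did the 8 interaction terms under their 15. The GTC change in 28 nt RPFs was the only one to turn, to 0.117 with libraries scaled to equal means and to 0.0386 without WT replicate 2 (0.0019 without eEF3d replicate 1), and it was -0.0735 without WT replicate 1. Without moderation of the variances, 0 of 8 codons passed in 21 nt RPFs (0 higher, 0 lower; 5 with an unadjusted p under 0.05), 2 in 28 nt RPFs (2 higher, 0 lower) and 3 in the interaction (2 of them lower), and over all 61 codons 0 (17 with an unadjusted p under 0.05), 12 and 13, against 38, 30 and 31 with limma. With each library centered on its median, 2 codons were lower in 21 nt RPFs, 3 higher and 2 lower in 28 nt RPFs, and 3 lower in the interaction. In either direction, 7, 5 and 4 of the 8 codons passed under that centering, against 32, 34 and 29 of all 61. With each library divided by its mean, 0 were lower and 6 higher in 21 nt RPFs, and 36 of all 61 codons passed in either direction. The change in the difference between endings moved to -1.10 in 21 nt RPFs without ATG.

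Under a replicate block, 6 codons passed in 21 nt RPFs, 2 in 28 nt RPFs and 4 in the interaction (3 lower). Over all 61 codons, 33, 19 and 23 passed. The 2 in 28 nt RPFs were ATA, higher, and GTG, lower, while ATT and ATC missed the threshold (limma adjusted p = 0.0504 and 0.103). The methods name no pairing, and deviations of same-numbered replicates correlated at -0.17 over codons in 21 nt and -0.03 in 28 nt RPFs. With the numbers crossed in 21 nt RPFs, an alternative chosen after seeing the data, 6 of 8 codons passed, against 39 of all 61.

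Leaving out each library in turn gave between 0 and 6 codons in 21 nt RPFs (0 to 5 higher, 0 to 1 lower), with 0 without either WT library. It gave 4 in 28 nt RPFs in each case (3 higher, 1 lower), and between 3 and 6 in the interaction (1 higher, 2 to 5 lower). Over all 61 codons the counts were 0 to 32, 28 to 33 and 20 to 36. The change in the difference between endings ranged from -0.99 to -0.60 in 21 nt RPFs and from -0.27 to -0.16 in 28 nt RPFs. The lone library left in a group was assumed to vary like the others.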
